A study of Mus musculus with 2 samples.

Results

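The Clcn5 intron cluster is a group of 5 microRNA genes, Mir532, Mir188, Mir362, Mir501 and Mir500, that lie on the X chromosome inside the gene Clcn5. The members were taken by gene name in GENCODE mouse, and all 5 of 5 were among the 1973 microRNA genes listed in each table. Small RNA (labelled as under 30 nucleotides) was sequenced from the forebrain of B6NCrl embryos at day 13.5, males and females pooled. There was 1 group, with no treatment or mutant allele named, in 2 libraries that the labels call biological replicates 1 and 2. The replicates have separate biosample identifiers and 1 donor identifier, and the embryos in each pool are not given, so their spread may be partly technical.

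A microRNA is cut from a hairpin in a longer RNA, and either arm of the hairpin, called 5p or 3p, can give a mature microRNA. Bases 2 to 8 of the mature microRNA, the seed, pair with target messenger RNAs, so microRNAs with the same seed are expected to share many targets. Hairpins in an intron are commonly made from the host gene's transcript. Clcn5 encodes ClC-5, a chloride and proton exchanger of endosomes that is best known from the kidney proximal tubule. In hippocampal neurons of rat, miR-188 has been described as a regulator of neuropilin-2 and of dendritic spines, and miR-501-3p as a regulator of the glutamate receptor subunit GluA1.

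The cluster covered chrX:7237683-7248497 (GRCm38, minus strand), a stretch of 10815 bases. All 5 hairpins lay in 1 intron of Clcn5, the 103648-base intron at chrX:7213011-7316658, which is intron 3 of the 15-exon transcript Clcn5-202. That intron is in 3 of the 5 annotated Clcn5 transcripts. The others, including the principal protein-coding transcript Clcn5-201, start downstream of the hairpins and do not hold them. In the direction of transcription Mir532 (ENSMUSG00000070139.1, chrX:7248402-7248497) came before Mir188 (ENSMUSG00000065398.1, chrX:7247989-7248056), with 345 bases between them. Mir362 (ENSMUSG00000070100.1, chrX:7241982-7242046) followed after 5942 bases, Mir501 (ENSMUSG00000076251.1, chrX:7241243-7241351) after a further 630 and Mir500 (ENSMUSG00000070108.2, chrX:7237683-7237774) after 3468.

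The mature sequences listed by RefSeq (GRCm38.p6) are shown because Mir500 shares a seed with Mir362 on one arm and with Mir501 on the other. Capitals mark the seed, and each sequence runs 5′ to 3′. RefSeq lists 1 mature sequence for Mir532, from the 3p arm, and 2 for each other member. No 5p sequence of Mir532 therefore enters the seed counts and comparisons below. The 5p sequences of the other 4 members start the seed with the same 4 bases, AUCC. That start was also found in 4 listed mature sequences outside the cluster.
miR-188-5p: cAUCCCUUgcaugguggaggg
miR-362-5p: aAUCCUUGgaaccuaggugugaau
miR-500-5p: aAUCCUUGcuaucugggugcuuagu
miR-501-5p: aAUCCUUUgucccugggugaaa
The 3p sequences fall into the near relatives miR-501-3p, miR-500-3p and miR-362-3p and the pair miR-188-3p and miR-532-3p.
miR-501-3p: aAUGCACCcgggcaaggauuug
miR-500-3p: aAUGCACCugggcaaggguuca
miR-362-3p: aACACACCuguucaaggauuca
miR-188-3p: cUCCCACAugcaggguuugca
miR-532-3p: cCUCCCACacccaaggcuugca

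Among these 9 sequences there were 7 different seeds. miR-501-3p and miR-500-3p had the same seed, AUGCACC, and miR-362-5p and miR-500-5p had the same seed, AUCCUUG. None of the other mouse mature sequences in the RefSeq table, which lists 1738 in all, had either of these seeds. miR-501-5p differed from the AUCCUUG seed in its last base. The shorter start AUCCUU, bases 2 to 7, was found in the 5p sequences of Mir362, Mir500 and Mir501 and in 0 listed mature sequences outside the cluster. miR-188-3p and miR-532-3p shared a stretch of 8 bases that is shifted by 1 position, so their seeds were not identical.

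The closest pair was miR-501-3p and miR-500-3p, separated by 4 substitutions, which are C9U, A18G, U21C and G22A with positions counted from the 5′ end (miR-501-3p base first). Over the 36 pairs the median was 11.5 base changes, and the longest shared stretch was 8 bases. The hairpins of Mir501 and Mir500 are shown because they hold the longest stretch shared by any pair of the cluster's hairpins, with the mature arms in capitals.
Mir501: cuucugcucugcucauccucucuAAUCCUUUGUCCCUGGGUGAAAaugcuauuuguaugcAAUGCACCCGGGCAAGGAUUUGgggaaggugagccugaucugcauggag
Mir500: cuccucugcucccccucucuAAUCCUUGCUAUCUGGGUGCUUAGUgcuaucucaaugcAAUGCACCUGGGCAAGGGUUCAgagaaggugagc
Their longest shared stretch was 14 bases, and over all 10 hairpin pairs it ranged from 5 to 14. Counted in single-base changes over their whole length they were 36 apart, and the shorter hairpins of Mir188 and Mir362 were closer, at 32. No member shared 20 bases, or 18, with an annotated microRNA at another locus. No label or file header states how reads with mismatches were placed, so a part of the reads of Mir500 and Mir501 could be exchanged between them.

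**Figure D1:**
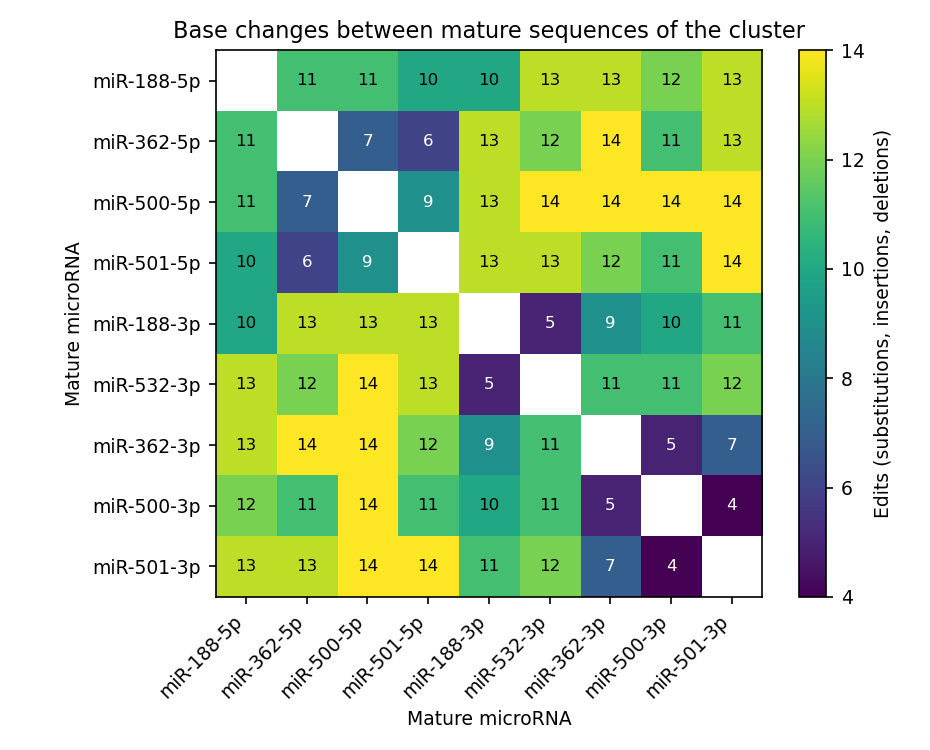
Number of single-base changes (substitutions, insertions and deletions) between each pair of the 9 listed mature sequences of the cluster, on both axes, with 5p sequences before 3p sequences. The smallest value, 4, is between miR-500-3p and miR-501-3p, and miR-188-3p stands 5 changes from miR-532-3p.

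All 5 members were detected in the forebrain, with at least 10 counts in each library, as were 377 of the 1973 listed genes. Together the members made up 0.459% ± 0.00430 of all counts on microRNA genes (SD, n = 2 libraries). The deposited values are counts of reads per gene on the strand of the gene, and a level is given here in CPM, counts per 1000000 gene counts of the library. A gene's count adds both arms of its hairpin, so 5p and 3p reads are not told apart. The cluster had 18788 counts in replicate 1, or 0.456% (95% Wilson interval 0.450 to 0.463), and 18073 in replicate 2, or 0.462% (0.456 to 0.469). The intervals of the libraries overlap. These intervals cover counting error only and not the spread between libraries. They may be too narrow even for that error, since reads copied by PCR are not independent molecules.

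Most of the reads came from the 2 members at the start of the cluster. Mir188 had 7859 counts in replicate 1 (1909 CPM) and 7212 in replicate 2 (1845 CPM). Mir532 had 7125 counts in replicate 1 (1730 CPM) and 7693 in replicate 2 (1968 CPM). Mir188 was the higher of these in replicate 1 and Mir532 in replicate 2, so their ranges overlap and their order is not set by these libraries. Their means were 1877 ± 44.95 CPM for Mir188 and 1849 ± 168 CPM for Mir532 (SD, n = 2 each). Within the cluster Mir188 took 40.9% ± 1.36 of the counts and Mir532 40.2% ± 3.28.

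The other members followed at lower levels, and none of their ranges overlapped. Mir501 had 2722 counts in replicate 1 (661 CPM) and 2309 in replicate 2 (591 CPM), a mean of 626 ± 49.7 CPM. Mir500 had 650 counts in replicate 1 (158 CPM) and 545 in replicate 2 (139 CPM), a mean of 149 ± 13.0 CPM. Mir362 had 432 counts in replicate 1 (105 CPM) and 314 in replicate 2 (80.3 CPM), a mean of 92.6 ± 17.4 CPM, the lowest of the cluster. In both libraries the order below the leading pair was Mir501, Mir500, Mir362. Of the 10 pairs of members, 9 kept separate ranges and 1, Mir188 with Mir532, did not.

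**Figure D2:**
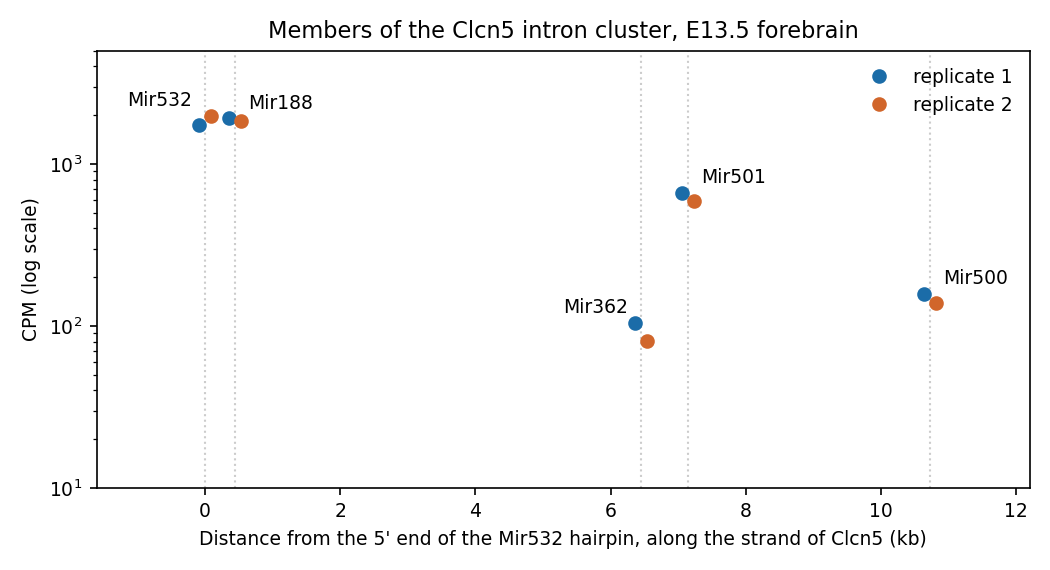
Level of each member in CPM (log scale) against its distance in kb from the 5′ end of the Mir532 hairpin, along the strand of Clcn5, with replicate 1 drawn just left and replicate 2 just right of a dotted line at the hairpin. Mir532 and Mir188, side by side at the start, lie between 1730 and 1968 CPM, and Mir362, Mir501 and Mir500 lie between 80.3 and 661 CPM.

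The highest member exceeded the lowest 21.3 ± 4.46-fold, by 18.2-fold in replicate 1 and by 24.5-fold in replicate 2. Mir188 had 12.7 ± 0.808 times the counts of Mir500, the last hairpin of the cluster. Neighbours could be close or far apart in level. Mir188 had 20.6 ± 3.38 times the counts of Mir362, the next hairpin downstream. Mir501 had 6.83 ± 0.744 times the counts of Mir362, from which only 630 bases separate it. Mir501 and Mir500, which share the 14-base stretch, also differed in level, and their ratio was nearly the same in both libraries, at 4.19 in replicate 1 and 4.24 in replicate 2. How evenly different microRNAs were captured was not measured, so these folds compare reads and need not equal differences in amounts of RNA.

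Seeds that members share can be set beside the counts of the genes that carry them, though a gene's count includes its other arm. The genes with the AUGCACC seed, Mir501 and Mir500, summed to 819 CPM in replicate 1 and 730 CPM in replicate 2, of which Mir501 held the larger part. The genes with the AUCCUUG seed, Mir362 and Mir500, summed to 263 CPM in replicate 1 and 220 CPM in replicate 2. Outside the cluster 1 measured gene had a listed mature sequence with the seed of 1 of the 9 sequences above. It was Mir329 of the Dlk1-Dio3 region, a microRNA regulated by activity in neurons, whose 3p sequence matches the ACACACC seed of miR-362-3p.
miR-329-3p: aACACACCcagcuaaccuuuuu
Mir329 had 584 counts in replicate 1 (142 CPM) and 520 in replicate 2 (133 CPM). Its mean of 137 ± 6.22 CPM was above that of Mir362, and the ranges of these genes do not overlap.

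Among the 377 detected genes, ordered by mean CPM, Mir188 was at place 69 and Mir532 at 71, Mir501 at 112, Mir500 at 184 and Mir362 at 206. The median detected gene had 137 CPM, which lies below Mir500 and above Mir362. The detected genes with levels nearest to those of Mir188 in both libraries were Mir15b, Mir101b and Mir153, by the distance of log2(CPM + 1) over 2 libraries. Those distances were 0.021, 0.12 and 0.16, and Mir532 came next at 0.17. Mir15b had 1906 CPM in replicate 1 and 1818 CPM in replicate 2. Mir15b is on chromosome 3, Mir101b on chromosome 19 and Mir153 on chromosome 12. With 2 libraries, likeness here is a likeness of level and little more.

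Each gene's counts in the libraries were set against each other in a two-sided exact binomial test, scaled by TMM. The test is about these libraries and not about conditions, and it covers counting error only. Ratios are log2 of replicate 1 over replicate 2. Mir532 was lower in replicate 1, with a log2 ratio of -0.29 (exact 95% interval -0.34 to -0.25, adjusted p = 2.38e-34 by the exact binomial test). Its neighbour Mir188 was also lower, at -0.060 (-0.11 to -0.014, exact adjusted p = 0.0309), a difference of 1.04-fold that changes sign with library totals, to 0.049 (exact adjusted p = 0.0854), and does not pass with DESeq2 size factors (exact adjusted p = 0.754). Mir362 was higher in replicate 1, at 0.28 (0.063 to 0.49, exact adjusted p = 0.029). Mir501, at 0.054 (-0.027 to 0.13, exact adjusted p = 0.341), and Mir500, at 0.070 (-0.096 to 0.24, exact adjusted p = 0.578), did not pass, though Mir501 passed with library totals, at 0.16 (exact adjusted p = 0.000252).

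In all, 3 of 5 members passed at an adjusted p under 0.05, 1 higher and 2 lower in replicate 1. Of the 475 genes tested 38.9% passed, 20.8% higher and 18.1% lower, so that a pass was common in the whole table. These were 99 genes higher and 86 lower, against 141 and 54 with library totals and 118 and 67 with DESeq2 size factors. With either of these scalings 2 members passed as higher, Mir362 and Mir501, and 1 as lower, Mir532. With TMM the members' median log2 ratio was 0.054, beside -0.023 over the genes tested, and their median absolute log2 ratio was 0.070, beside 0.21 over detected genes. These medians depend on the scaling, since library totals move every log2 ratio by 0.11, which is more than 0.070. The detected genes also include genes with fewer counts, whose ratios carry more counting error. With the further limit of an absolute log2 ratio over 1, 0 members were called by the exact binomial test, against 3.37% of the genes, and 3 members had an unadjusted p under 0.05. An edgeR exact test with a dispersion estimated from these same libraries (biological coefficient of variation 14.3%) called 0 members and 1 gene. At an unadjusted p under 0.05 it had 0 members and 31 genes. The dispersion was estimated with the 2 libraries as 1 group, so their difference counted as noise. Few calls were therefore likely in advance, and the low number says little about the genes.

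Relative to the other 4 members, a measure that needs no library size, Mir532 stood lower in replicate 1 by a log2 difference of -0.28 and Mir362 higher by 0.41. Mir188 was higher by 0.11, Mir501 by 0.21 and Mir500 by 0.20. On this scale Mir532 was thus the 1 member lower in replicate 1, but the members' values depend on one another. Mir532 held 40.2% of the cluster's counts, so its own shift moves each other member the opposite way. The choice of this measure was made after the counts had been seen, and it was not tested.

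**Figure D3:**
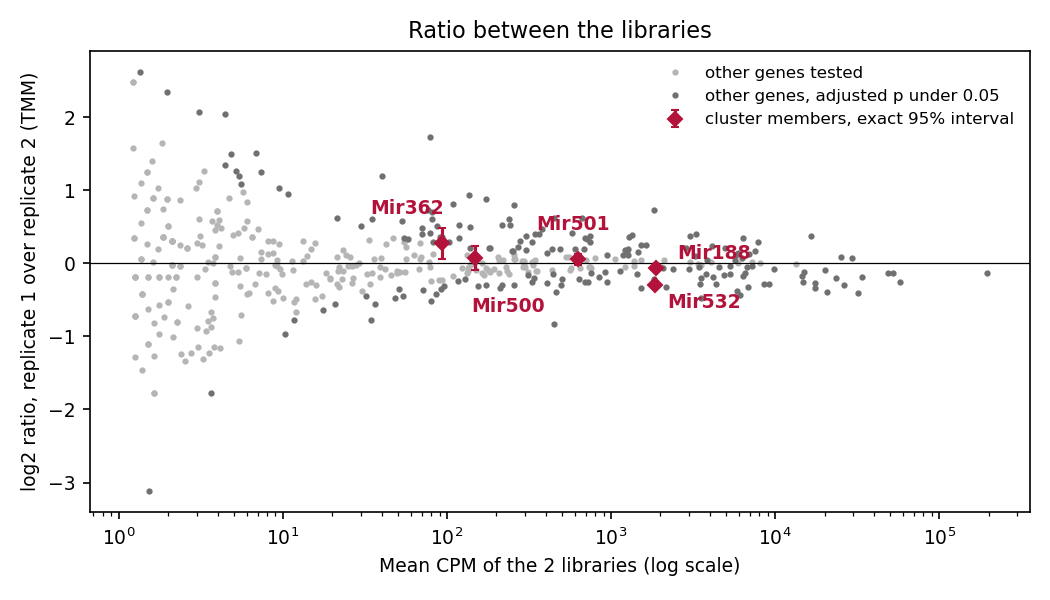
Ratio between the libraries (log2, replicate 1 over replicate 2, TMM) against mean CPM (log scale) for the 475 genes tested, with dark grey points for genes past the exact binomial test and red diamonds with exact 95% intervals for the members. Mir532 lies at -0.29 and Mir362 at 0.28, and the other members lie between them. Of the detected genes 35.8% had a larger absolute ratio than Mir532.

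Against other microRNA groups on the X chromosome the cluster was intermediate in its share of reads. Its 4563 CPM in replicate 1 and 4623 CPM in replicate 2 stood above the Mir106a-363 cluster, a paralog of the Mir17 cluster linked to proliferation, with 3326 and 2793 CPM. It also stood above Mir221 and Mir222, which have been described as repressors of the cell cycle inhibitor p27, with 431 CPM in replicate 1 and 360 CPM in replicate 2. It stood below the Mir322 cluster, with 16205 CPM in replicate 1 and 17546 CPM in replicate 2. The Huwe1 intron genes Mir98 and Mirlet7f-2 of the let-7 family were also higher, with 6703 and 8039 CPM. These are sums over groups of unlike size, from 2 to 7 genes. By the median of its genes' mean CPM the cluster, at 626, was above the Mir322 cluster, at 240. The order against the other groups named here was the same by that median. Mir19b-2 and Mir92-2 of the Mir106a-363 cluster, Mir450-1 and Mir450-2 of the Mir322 cluster, and Mirlet7f-2 share 20 bases with another microRNA locus. Multi-mapped reads are not in these counts, so the sums of those groups may be too low. Whether the place of the Mir106a-363 cluster depends on this was not tested.

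The ratio of the cluster's counts to those of the other group was 0.273 ± 0.0128 for the Mir322 cluster, 0.628 ± 0.0747 for the Huwe1 intron genes, 1.51 ± 0.201 for the Mir106a-363 cluster and 11.7 ± 1.58 for Mir221 and Mir222 (SD, n = 2 libraries). In each case the ranges of the groups do not overlap. No permutation test can reach a p of 0.05 with 2 libraries, and none was made. The Mir322 share rested on Mir322 itself, at 14116 CPM in replicate 1 and 15552 CPM in replicate 2, and each of its other genes was lower than Mir188. Of the 39 detected genes on the X chromosome, ordered by mean CPM, Mir188 and Mir532 were at places 5 and 6, after Mir322, Mir98, Mir652 and Mir361. These places are of the mean, and Mir1298 of the Htr2c intron, with 2355 CPM in replicate 1 and 1310 CPM in replicate 2, was above both in replicate 1. The cluster held 10.1% of the X-linked gene counts in replicate 1 and 9.92% in replicate 2.

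Another intronic group on the X chromosome, in Htr2c, had unequal sums in the libraries. The 6 Htr2c genes, led by Mir1298, Mir448 and Mir1264, are known from the choroid plexus, where Htr2c is strongly expressed. They summed to 2695 CPM in replicate 1 and 1484 CPM in replicate 2. All 5 that were tested were higher in replicate 1 past the exact binomial test, as were 20.8% of the 475 genes tested. The edgeR exact test, which counts the difference between the libraries as noise, called 1 gene in the whole table. Mir764, with 21 and 4 counts, and Mir1912, with 30 and 9, did not reach the limit for detection in both libraries. Hairpins of a shared host gene may come from the same transcript, so their ratios need not be independent. The Clcn5 cluster summed to 4563 and 4623 CPM in the same libraries. The ratio of the Clcn5 to the Htr2c group was therefore 1.69 in replicate 1 and 3.12 in replicate 2.

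**Figure D4:**
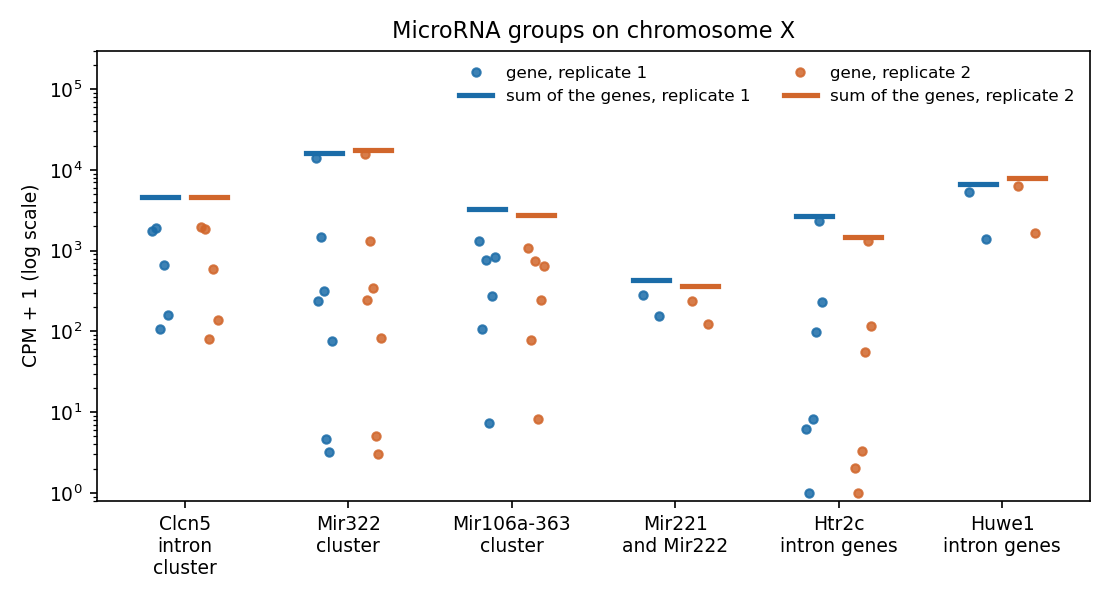
Level of each gene (points) and of the sum over its group (bars) in CPM + 1 (log scale) for the Clcn5 cluster and 5 other groups on the X chromosome, with replicate 1 left of replicate 2. The sums of the Clcn5 cluster, 4563 and 4623 CPM, are nearly level, and those of the Htr2c intron genes are 2695 and 1484 CPM.

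The libraries held 10631040 reads in replicate 1 and 10452225 in replicate 2, of which 4117752 and 3908953 were counted on microRNA genes, so that 1 count equals 0.243 to 0.256 CPM. Multi-mapped reads, 40.6% and 43.9% of all, stand in a row of their own in these tables. Neural markers summed to 27236 CPM in replicate 1 and 23525 CPM in replicate 2, led by Mir92b and Mir137. The genes Mir124a-1, Mir124a-2 and Mir124a-3 of the neuronal microRNA miR-124, which have copies, had 3 to 20 counts. Mir9-2, Mir9-3, Mir128-1 and Mir128-2 have copies too, so the neural sum may be too low, and Mir9-2 had 20 and 18 counts. Markers of hindbrain and trunk, led by Mir10a, summed to 436 and 285 CPM, and the endothelial Mir126a stood at 16042 and 18828 CPM. The erythroid markers summed to 150 and 76.2 CPM but went opposite ways, Mir451a with 123 CPM in replicate 1 and 34.3 CPM in replicate 2, and Mir144 with 26.5 and 42.0 CPM. Leukocyte Mir223 had 89.4 and 102 CPM, liver Mir122 59.3 and 52.7 CPM, and striated muscle 10.4 and 3.33 CPM, all from Mir206, with Mir1a-1, Mir133a-1 and Mir133b, which share 20 bases with another microRNA locus, at 0 counts. The part of these markers in the ratios of the members was not tested, and in bulk tissue fewer cells of a type and less RNA per cell cannot be told apart. The members had 0 reads on the opposite strand in both libraries, which allows up to 0.729 CPM in replicate 1 and 0.767 CPM in replicate 2.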

How the data were processed

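The authors deposited whole-number counts of reads per microRNA gene, 1 table per library, with columns for either strand, the strand of the gene and the opposite strand; the build mm10 and the GENCODE M4 annotation are per the deposited read-me texts. Which aligner and counter were used is not given in the sources read. Names and positions came from GENCODE M21 on the same build, which matched 1894 of 1973 identifiers, and sequences from RefSeq. The rows for unmapped (16.7% and 15.0%), multi-mapped (40.6% and 43.9%), unassigned (3.99% and 3.71%) and ambiguous reads (0) were left out of library sizes.

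CPM, shares and folds were computed from counts on the strand of the gene. Library ratios used TMM sizes (edgeR 4.0.16, R 4.3.3), a prior count of 0.5 and an exact binomial test. The test covered genes whose counts summed to 10 or more, with Benjamini-Hochberg adjustment over all 475. It was checked on simulated data that held counting error only, so the check does not cover further spread between libraries. An edgeR quasi-likelihood test was not possible with 1 group of 2 libraries. Alternatives used DESeq2 1.42.0 size factors, library totals, other filters, strands and denominators. The members and lists were chosen with earlier results of these data known. Named genes were the members, leading genes of each list, seed relatives and the 3 nearest genes; Mir652 and Mir361 were named after their values were seen. Mir9-1 and Mir142 of the marker lists had no row of their own.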

Additional observations from a re-analysis of the deposited data

How the results depend on the processing

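Apart from leaving out a library, there were 110 alternative values for 23 results. Of these 81 kept their direction and side of the threshold, moved by less than the replicate SD or, for counts of genes, stayed within 1.5 times. Some of these could not move, such as ratios between groups with all reads as the denominator, which cancels. Filters on low counts leave each log2 ratio as it is and change only the adjusted p. Values relative to the other members had no test and so no threshold. The number 81 is therefore not a measure of stability. With all reads as the denominator the members summed to 1748 CPM (0.175%), without the 5 most abundant genes in it to 7519 CPM (0.752%), and with counts on either strand to 4499.7 CPM (0.450%); the members' own levels moved in the same proportions. Leaving out 1 of 2 libraries gives the other library's value, which by arithmetic lies within the SD, so it says nothing of stability; it gave shares of 0.456% to 0.462% and folds between highest and lowest member of 18.2 to 24.5. Library totals moved all log2 ratios by 0.11 and DESeq2 size factors by 0.046. Mir188, at -0.060, became 0.049 with library totals and 0.11 relative to the other members, and missed the threshold with DESeq2 size factors (-0.014), counts on either strand (-0.054) and the edgeR exact test (-0.060). Its adjusted p ranged from 0.0206 to 1 over the alternatives. Mir501, at 0.054, passed with library totals (0.16) and DESeq2 size factors (0.10). The edgeR exact test left Mir532 (-0.29) and Mir362 (0.28) uncalled, with 0 members and 1 gene called in place of 3 and 185. That test counts the difference between the libraries as noise, so few calls were likely in advance. Without Mirlet7f-2, which has a copy, the ratio to the Huwe1 intron genes was 0.793. Without Mir19b-2 and Mir92-2, which also have copies, the ratio to the Mir106a-363 cluster was 1.66. Leaving such genes out does not restore their multi-mapped reads. No cause was tested. No paired analysis was possible because there is 1 group. Depth limits Mir362 most, whose interval spans 0.063 to 0.49.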

Other observations

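The hairpins of the cluster differed in length and in predicted folding. With RNAfold 2.7.2 the predicted free energy was -28.8 kcal/mol for Mir188 (68 bases), -33.2 for Mir532 (96 bases), -46.9 for Mir501 (109 bases), -41.9 for Mir500 (92 bases) and -28.5 for Mir362 (65 bases). Per base Mir532 was the least stable, at -0.346 kcal/mol, and 9.85% of 325 detected hairpins were weaker. Mir188, Mir501, Mir362 and Mir500 lay between -0.424 and -0.455, around the median of -0.434 of those hairpins. Mir532 and Mir188, with levels whose ranges overlap, thus stood at different places in this measure, and the lowest member, Mir362, was near the median. The listed hairpins differ in how much flanking sequence they include, and no relation to the levels was tested.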
